A study of Mus musculus with 10 samples.

Results

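The antimicrobial proteins that squamous epithelium makes or releases were followed by 10 genes, chosen by name from the 54446 genes of the table. They are the beta-defensins Defb1, Defb3, Defb4 and Defb14, the whey acidic protein (WAP) genes Slpi, Wfdc5 and Wfdc12, and the effectors Lcn2, Nos2 and Pglyrp1. RNA came from the esophagus of C57BL/6 mice with the genotype WT in every sample. The vehicle group held 5 libraries (A1 to A5), and the OXA group held 5 (C1 and D1 to D4) from mice taken through an experimental eosinophilic esophagitis model with the hapten oxazolone (OXA), an allergic inflammation of the esophagus. The sources used here do not give age, sex, dose, schedule, the time of sampling or the meaning of the letters A, C and D. Because the letters are nested in treatment, their part in any difference cannot be told apart from it. The labels name separate samples but do not say that each was 1 mouse, so p-values measure only the spread between these libraries.

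These genes belong to the chemical defence of body surfaces. Beta-defensins are small cationic peptides, held in shape by paired cysteines, that damage microbial membranes and attract leukocytes. WAP proteins fold around a tight core of paired cysteines and block serine proteases such as neutrophil elastase, and the best known of them, secretory leukocyte protease inhibitor (Slpi), also kills microbes. Lipocalin 2 (Lcn2) withholds iron by binding bacterial siderophores, peptidoglycan recognition protein 1 (Pglyrp1) binds the bacterial cell wall, and the inducible nitric oxide synthase (Nos2) makes a toxic gas. Some are made by resting epithelium and others are induced by microbial products and by cytokines such as IL-1, IL-17 and IL-22. Lcn2 and Pglyrp1 are also stored in neutrophil granules.

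The results turn on members of 1 gene family that lie side by side and moved in opposite directions, so their coding sequences are shown. They were read from the GENCODE M21 transcripts on GRCm38, 5′ to 3′ from start to stop codon, with each cysteine codon (TGT or TGC in frame) in capitals. Defb6, a neighbour in the same cluster, is not a member and is shown because it lies between Defb4 and Defb3.
Defb14: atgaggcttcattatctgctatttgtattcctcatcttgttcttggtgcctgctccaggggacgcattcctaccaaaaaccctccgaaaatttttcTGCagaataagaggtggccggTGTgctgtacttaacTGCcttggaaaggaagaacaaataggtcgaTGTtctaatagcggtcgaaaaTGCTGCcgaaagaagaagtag
Defb4: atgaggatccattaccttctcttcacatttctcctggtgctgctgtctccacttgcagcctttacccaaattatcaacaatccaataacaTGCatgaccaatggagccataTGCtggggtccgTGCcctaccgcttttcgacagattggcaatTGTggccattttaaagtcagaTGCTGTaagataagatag
Defb6: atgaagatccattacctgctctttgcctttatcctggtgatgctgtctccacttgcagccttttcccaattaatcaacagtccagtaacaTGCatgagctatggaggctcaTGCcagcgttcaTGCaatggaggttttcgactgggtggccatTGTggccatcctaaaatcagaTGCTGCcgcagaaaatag
Defb3: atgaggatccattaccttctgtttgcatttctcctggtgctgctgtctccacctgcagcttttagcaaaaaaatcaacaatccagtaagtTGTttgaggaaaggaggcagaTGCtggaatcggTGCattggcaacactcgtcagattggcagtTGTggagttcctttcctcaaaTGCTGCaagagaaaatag
Defb1: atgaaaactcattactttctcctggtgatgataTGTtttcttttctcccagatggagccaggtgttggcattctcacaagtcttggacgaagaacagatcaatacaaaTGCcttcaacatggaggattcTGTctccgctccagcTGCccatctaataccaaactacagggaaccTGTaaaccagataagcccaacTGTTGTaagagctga
The sequences of Defb14, Defb4, Defb6 and Defb3 each hold 6 cysteine codons, while that of Defb1 holds 7. All 4 end their run of cysteines with an adjacent pair, as does Defb1. In global alignments the coding sequences of Defb4 and Defb3 were 75.9% identical and those of Defb4 and Defb6 78.7%, against 58.3% for Defb4 and Defb14. The longest run of bases shared by 2 transcripts was 33 between Defb4 and Defb3, 26 between Defb4 and Defb6, and 8 between Defb4 and Defb14. The sources used here do not say how reads matching more than 1 gene were counted, so Defb3, with few reads beside the abundant Defb4, is the less certain of these rows.

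After OXA the set split. Defb14, Defb3, Lcn2 and Pglyrp1 rose, Defb4, Slpi and Wfdc12 fell, and Defb1 and Wfdc5 did not pass. Defb14 was 3.33-fold higher and Pglyrp1 8.42-fold higher in mean normalized counts, whereas Defb4 was 4.77-fold and Slpi 2.33-fold lower. A read was present for all 10 members, and 9 of them, all but Nos2, reached the mean of 5 normalized counts that a gene needed to be tested. With limma on log2(value + 1), and Benjamini-Hochberg adjustment over 14712 genes with calls at an adjusted p under 0.05, 4 members were called higher, where 15.7% of all tested genes were, and 3 lower, where 14.2% were (29.9% in either direction). The groups did not overlap for 4 members, against 22.4% of all tested genes. In 2 of the 4, Defb14 and Pglyrp1, every OXA library exceeded every vehicle library (12.0% of tested genes), and in 2, Defb4 and Slpi, each OXA library was below them (10.4%). The median log2 fold change of the 9 tested members was -0.46, and that of all tested genes -0.01. Defb3 reached the filter only through its OXA libraries, so its place among the tested genes was not independent of its direction.

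**Figure D1:**
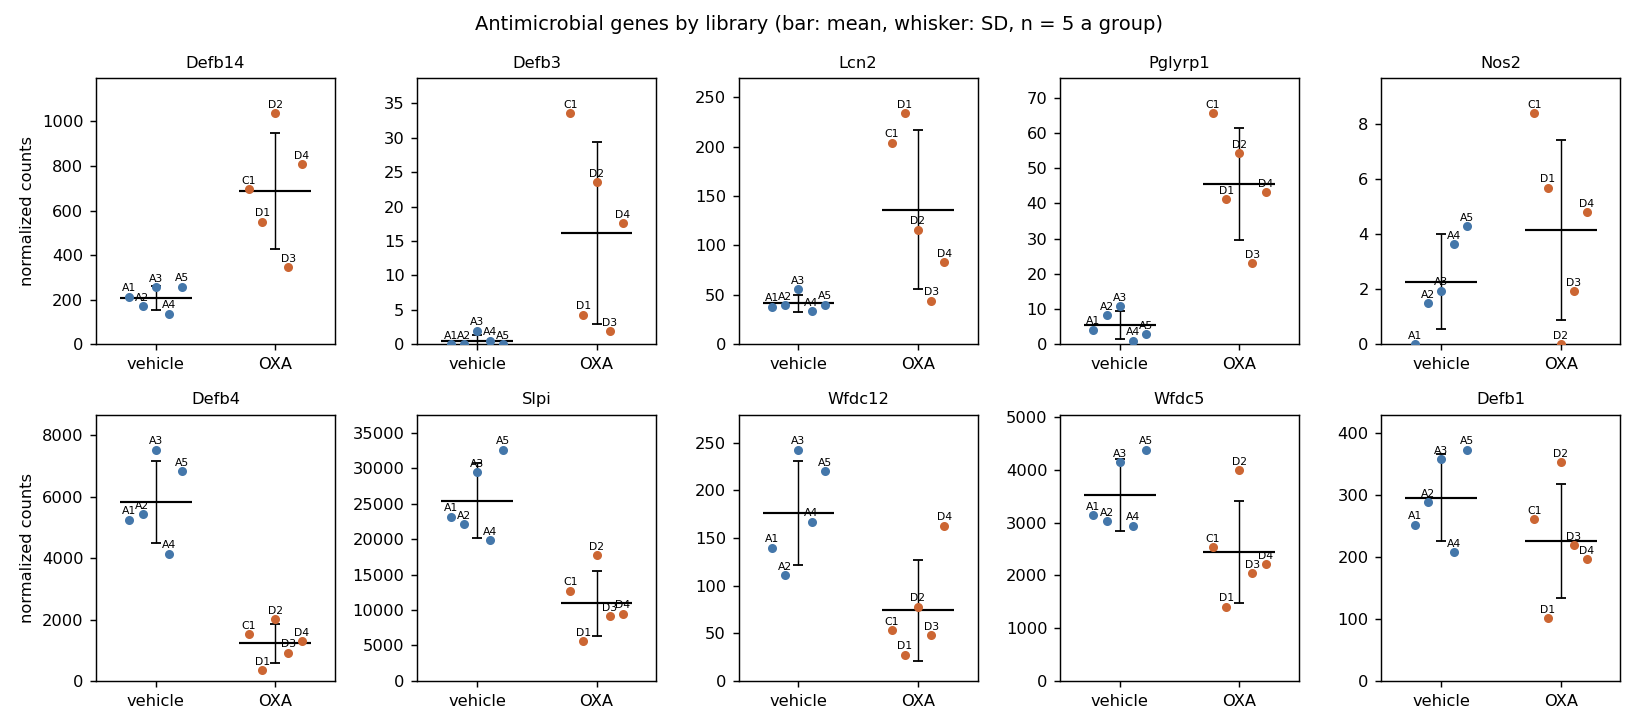
Normalized counts of the 10 antimicrobial genes (y axis, linear from 0) in each library by group (x axis), with a bar at the group mean and a whisker of 1 SD on each side (n = 5 a group). All OXA libraries lie above all vehicle libraries for Defb14 and Pglyrp1 and below them for Defb4 and Slpi, while Defb1, Wfdc5, Wfdc12, Lcn2, Defb3 and Nos2 overlap.

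Among the beta-defensins, Defb14 is the mouse counterpart of the inducible human beta-defensin 3. It stood at 212.63, 170.24, 255.29, 137.11 and 257.56 normalized counts in A1 to A5. In C1 and D1 to D4 it stood at 696.15, 549.45, 1037.39, 345.73 and 807.75. Every OXA library was above every vehicle library, with D2 highest and D3 lowest in OXA. The group means were 207 ± 52.8 and 687 ± 261 (SD, n = 5), a log2 fold change of 1.68 ± 0.26 (SE, limma adjusted p = 3.58e-04). Defb14 (ENSMUSG00000046354.3) spans 19194357 to 19195512 on chromosome 8. Its GENCODE model is 204 bases of coding sequence with no UTR, and the span in the table runs 300 bases farther at the 3′ end, where CEL-Seq reads fall.

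Defb4 is related to the inducible human beta-defensin 2 and was high in the esophagus of the vehicle group. Its values were 5244.88, 5432.71, 7527.05, 4139.71 and 6823.85 in the vehicle libraries. They were 1525.89, 353.27, 2015.03, 915.57 and 1299.43 in C1 and D1 to D4. The groups were far apart, from A4 as the lowest vehicle library to D2 as the highest of OXA, and D1 was lowest of all. The means were 5834 ± 1344 and 1222 ± 628 (SD, n = 5), a log2 fold change of -2.44 ± 0.37 (SE, limma adjusted p = 2.46e-04). Defb4 (ENSMUSG00000059230.2, chromosome 8, 19198706 to 19201845) starts 3194 bases after the end of Defb14 on the same strand.

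The divergence of these neighbours can be read within each library, where no scaling between libraries enters. Counted 3′ ends of Defb14 were 3.13% to 4.05% of those of Defb4 in the vehicle libraries. In OXA they were 45.6% in C1, 156% in D1, 51.5% in D2, 37.8% in D3 and 62.2% in D4. The means were 3.53% ± 0.37 and 70.5% ± 48.4 (SD, n = 5), with no overlap (exact two-sided permutation p = 0.00794, the smallest that 5 against 5 libraries allow). D1 alone had more Defb14 than Defb4 counts. Defb4 also fell against Slpi, from 22.9% ± 2.13 to 10.7% ± 2.77 of its counts, and Defb1 rose against Defb4 from 5.08% ± 0.308 to 20.5% ± 5.70 (SD, n = 5, exact permutation p = 0.00794 for each, no overlap). Of 5 such ratios computed, p-values are given without adjustment.

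Defb3 held 2 reads in A3 and 1 read in A4 and none in A1, A2 and A5. In OXA it stood at 33.59 normalized counts in C1, 4.26 in D1, 23.54 in D2, 1.92 in D3 and 17.56 in D4, from 76 reads in all. D3, at 1.92, lay just under A3, at 1.95, so the groups overlapped by that pair. The ratio of the pooled, depth-corrected counts was 30.6 (95% exact interval 10.1 to 151, for counting error only). On the fitted scale the log2 fold change was 3.14 ± 0.74 (SE, limma adjusted p = 0.00566), and without A5, D2 and D4, the 3 shallowest libraries, the call was lost (adjusted p = 0.0676). Defb3 (ENSMUSG00000039775.7) spans 19293360 to 19295591 on chromosome 8.

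Defb1 is the beta-defensin that epithelia make without induction. It stood at 252.69, 288.73, 358.57, 208.26 and 373.46 in vehicle and at 261.06, 101.65, 353.04, 219.31 and 196.35 in C1 and D1 to D4. The groups overlapped over most of their range. The means were 296 ± 69.9 and 226 ± 91.9 (SD, n = 5), and the log2 fold change of -0.46 ± 0.28 (SE) did not pass (limma adjusted p = 0.223). Defb1 (ENSMUSG00000044748.8, chromosome 8, 21776599 to 21795485) lies outside the Defb14 to Defb3 stretch.

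Beyond the 4 members, the table lists 39 other genes named Defb, of which 33 had no read in any library and 1 was tested. That gene, Defb6, fell from 82.7 ± 9.17 to 4.16 ± 2.39 normalized counts (SD, n = 5), a log2 fold change of -4.28 ± 0.47 (SE, limma adjusted p = 2.18e-05). Its vehicle libraries lay between 72.93 and 93.01 and its OXA libraries between 0 and 5.75. Defb8 held 33 reads in the vehicle libraries and 1 read in OXA, Defb25 held 0 and 13, Defb42 12 and 13, and Defb5 and Defb33 no more than 2 reads each. Between Defb14 and Defb8 on chromosome 8 (19194357 to 19447606), 5 genes were tested and all were called. Over all tested genes 29.9% were called, 15.7% as higher and 14.2% as lower. Of the 5 in the cluster, Defb14 and Defb3 at either side rose, and Defb4, Defb6 and the alpha-defensin pseudogene Defa-ps12 between them fell. Defb3 reached the filter only through OXA, and Defb6 and Defa-ps12 only through vehicle. Their place among the tested genes was therefore not independent of their direction. Defa-ps12 is outside the naming rule and was chosen after its values were seen, at -4.78 ± 0.45 (SE, limma adjusted p = 6.04e-06).

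**Figure D2:**
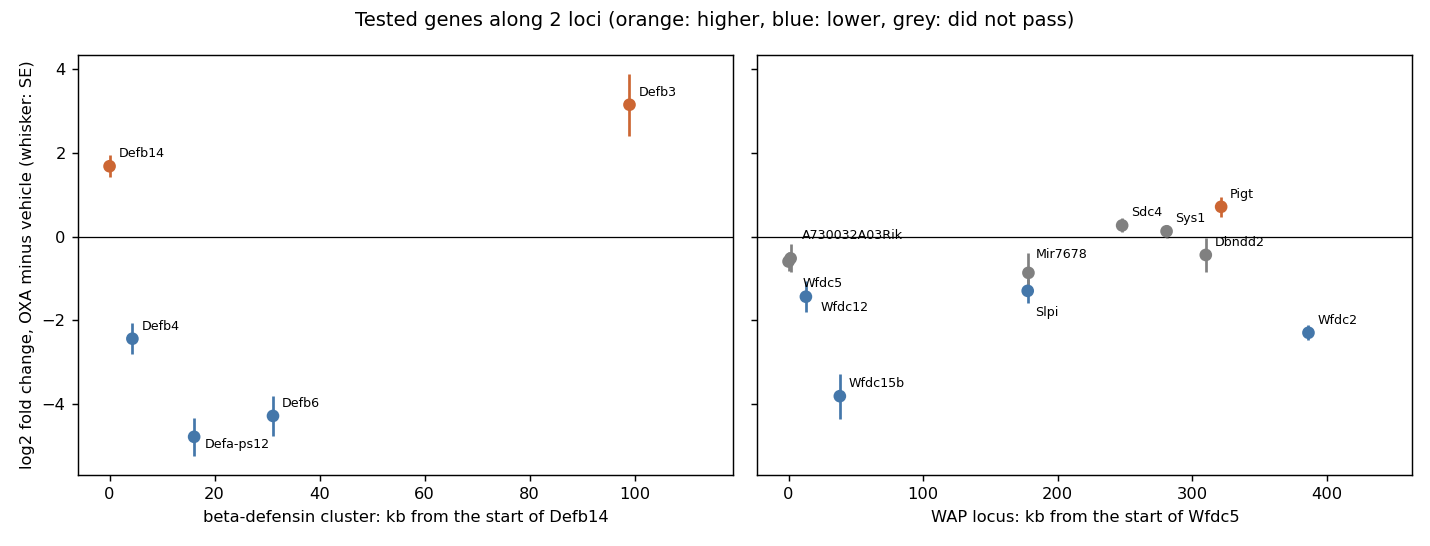
Log2 fold change of OXA minus vehicle (y axis, point with a line of 1 SE on each side) of each tested gene against the distance of its start from the first gene of the locus in kb (x axis), for the beta-defensin cluster on the left and the WAP locus on the right. In the cluster Defb14 (1.68) and Defb3 (3.14) are above 0 and the 3 genes between them lie from -4.78 to -2.44, whereas in the WAP locus Wfdc12, Wfdc15b, Slpi and Wfdc2 fell. Defb3, Defb6, Defa-ps12 and Wfdc15b reached the filter only through the group where they were higher.

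Defb3 and Defb6 moved apart although the DNA just before their starts is alike, so these windows are shown. They are the 250 bases before the RefSeq start on GRCm38.p6, both on the plus strand, at chr8:19293111-19293360 for Defb3 and chr8:19225228-19225477 for Defb6. Capitals mark matches, on either strand, to the C/EBP motif TTNNGNAA or to the NF-kB motif.
Defb3 window: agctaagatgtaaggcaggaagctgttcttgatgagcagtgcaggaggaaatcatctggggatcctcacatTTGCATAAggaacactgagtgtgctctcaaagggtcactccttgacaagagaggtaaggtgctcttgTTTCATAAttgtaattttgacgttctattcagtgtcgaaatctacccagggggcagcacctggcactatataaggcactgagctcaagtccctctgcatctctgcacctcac
Defb6 window: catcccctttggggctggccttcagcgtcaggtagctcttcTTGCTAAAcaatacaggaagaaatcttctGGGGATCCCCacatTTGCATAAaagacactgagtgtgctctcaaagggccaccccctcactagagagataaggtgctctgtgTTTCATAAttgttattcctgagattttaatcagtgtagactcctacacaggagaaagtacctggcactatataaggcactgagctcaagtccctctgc
An alignment of the windows was identical in 196 of 265 columns (74.0%), with a longest shared run of 40 bases. Defb3 held C/EBP matches at bases -179 to -172 and -112 to -105 and no NF-kB match. Defb6 held C/EBP matches at -209 to -202, -166 to -159 and -98 to -91 and an NF-kB match at -180 to -171. No marked match shares a base with another. Of 32851 windows of the same length in the RefSeq table, 36.85% held the C/EBP motif and 7.25% the NF-kB motif. Windows were found for 5 of the 10 members (Defb3, Lcn2, Slpi, Wfdc12 and Pglyrp1). Among these, Pglyrp1 held an NF-kB match at -93 to -84 and no C/EBP match, and Defb3, Lcn2, Slpi and Wfdc12 held C/EBP matches and no NF-kB match. The STAT6 motif, in 5.85% of all windows, was found in Lcn2 at -156 to -147 and in no other of the 5. Neither the STAT motif TTCNNNGAA (7.02% of windows) nor the AP-1 motif TGANTCA (6.75%) was found in any of the 5. A match is a description of letters and not a bound site.

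The WAP genes were lower or did not pass. The coding sequence of Wfdc12, the shortest of the 3, is shown with cysteine codons in capitals, because these make the WAP fold.
Wfdc12: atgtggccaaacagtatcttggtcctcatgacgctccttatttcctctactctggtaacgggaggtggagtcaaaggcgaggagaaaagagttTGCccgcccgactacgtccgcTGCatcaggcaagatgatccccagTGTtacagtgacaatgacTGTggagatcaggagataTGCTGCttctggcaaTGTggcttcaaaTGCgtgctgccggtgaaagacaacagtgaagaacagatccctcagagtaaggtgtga
It holds 8 cysteine codons in 85 codons before the stop. Slpi and Wfdc5 hold 17 each, in 131 and 126 codons.

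Slpi stood at 23184.9, 22113.3, 29417.4, 19868.1 and 32592.5 normalized counts in the vehicle libraries. In C1 and D1 to D4 it stood at 12732.3, 5585.5, 17753.3, 9126.94 and 9487.11. Every OXA library was under every vehicle library, and D2 and A4 were nearest to each other. The means were 25435 ± 5343 and 10937 ± 4574 (SD, n = 5), a log2 fold change of -1.30 ± 0.29 (SE, limma adjusted p = 0.00419). Slpi (ENSMUSG00000017002.14) spans 164353770 to 164389095 on chromosome 2. That span holds the counted microRNA gene Mir7678 on the same strand and meets the edge of the gene Matn4.

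Wfdc12, a WAP protein with 1 such core, stood at 139.7, 110.99, 242.62, 167.23 and 220.35 in vehicle. It stood at 53.43, 27.72, 77.85, 47.89 and 162.83 in C1 and D1 to D4. The OXA libraries lay under all vehicle libraries except D4, which was above A1 and A2. The means were 176 ± 54.8 and 73.9 ± 52.8 (SD, n = 5), a log2 fold change of -1.44 ± 0.38 (SE, limma adjusted p = 0.0108). Wfdc12 (ENSMUSG00000042845.7, chromosome 2, 164188931 to 164190608) lies within the span of the antisense gene A730032A03Rik, and the sources used here do not give the strand setting of the counting.

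Wfdc5 stood at 3133.99, 3025.34, 4144.02, 2942.62 and 4378.48 in vehicle and at 2534.24, 1404.55, 3993.85, 2041.83 and 2210.95 in C1 and D1 to D4. D2 lay among the vehicle libraries, and the other 4 OXA libraries lay below all of them. The log2 fold change of -0.60 ± 0.24 (SE) did not pass (limma adjusted p = 0.0723). Without D2 it was -0.79 and passed (adjusted p = 0.00827). Within libraries, Wfdc5 rose against Slpi from 13.9% ± 0.56 to 22.6% ± 1.89 of its counts (SD, n = 5), with vehicle between 13.4% and 14.8% and OXA between 19.9% and 25.1% (exact permutation p = 0.00794). Wfdc5 (ENSMUSG00000040154.11) spans 164176027 to 164182742 on chromosome 2. The antisense gene A730032A03Rik (164177584 to 164196564) overlaps it too, so the limit given for Wfdc12 also holds here.

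Of 19 other WAP and related inhibitor genes, 12 had a read and 4 were tested, of which 2 fell, 1 rose and 1 did not pass. The shares over all tested genes were 14.2% lower and 15.7% higher. Wfdc2, an epithelial WAP protein, fell from 496 ± 99.4 to 101 ± 24.4 normalized counts (SD, n = 5; -2.30 ± 0.18, SE, limma adjusted p = 1.20e-06). Summed counts of 7 gland and airway markers were also lower in OXA (35.1 to 99.6, against 104 to 123 in vehicle). Which epithelium carried Wfdc2 was not tested. Wfdc15b fell from 22.6 ± 6.08 to 1.03 ± 1.59, with 125 reads in vehicle and 4 in OXA (-3.81 ± 0.54, adjusted p = 1.57e-04). It reached the filter only through vehicle. The gene that rose, Wfdc17, is known from activated macrophages and was chosen after its values were seen, since its groups overlapped. It went from 61.3 ± 27.6 to 178 ± 71.5 (adjusted p = 0.00386). Along chromosome 2 from Wfdc5 to Wfdc2 (164176027 to 164568810), 11 genes were tested. The 4 that fell were Wfdc12, Wfdc15b, Slpi and Wfdc2, all WAP genes. Among the other 7, Pigt, which is no WAP gene and was chosen after its values were seen, rose by 0.71 (adjusted p = 0.0387) and 6 did not pass.

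**Figure D3:**
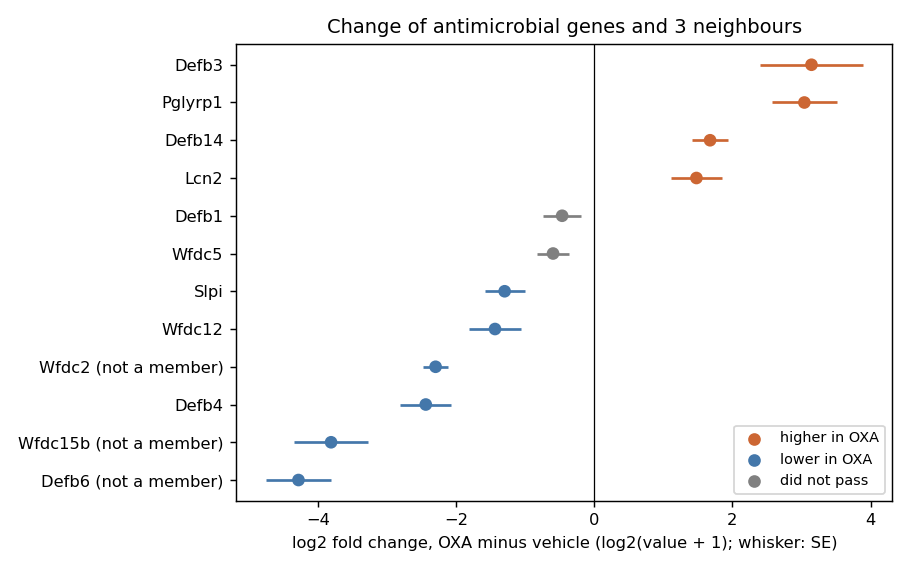
Log2 fold change of OXA minus vehicle on the log2(value + 1) scale (x axis; point, with a line of 1 SE on each side) for the 9 tested antimicrobial genes and for Defb6, Wfdc2 and Wfdc15b. Defb3, Pglyrp1, Defb14 and Lcn2 lie between 1.48 and 3.14, the called decreases lie between -4.28 and -1.30, and Defb1 and Wfdc5, in grey, did not pass.

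Among the other effectors, Pglyrp1 stood at 4.11, 8.25, 10.72, 1.04 and 2.86 normalized counts in vehicle. In C1 and D1 to D4 it stood at 65.65, 41.23, 54.31, 22.98 and 43.1. Every OXA library was above every vehicle library, with D3 lowest in OXA. The log2 fold change was 3.04 ± 0.47 (SE, limma adjusted p = 3.17e-04), from 30 reads in vehicle and 225 in OXA. Pglyrp1 (ENSMUSG00000030413.7) spans 18871331 to 18890759 on chromosome 7.

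Lcn2 stood at 38.01, 39.75, 55.54, 33.24 and 40.06 in vehicle and at 203.81, 233.85, 115.87, 44.05 and 83.01 in C1 and D1 to D4. The vehicle libraries were close together, while OXA ran from D3, which lay under A3, up to D1. The means were 41.3 ± 8.40 and 136 ± 80.4 (SD, n = 5), a log2 fold change of 1.48 ± 0.37 (SE, limma adjusted p = 0.00864). Lcn2 (ENSMUSG00000026822.14) spans 32384333 to 32388252 on chromosome 2.

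Nos2 lay near the limit of detection and was not tested with limma. It stood at 0, 1.5, 1.95, 3.64 and 4.29 in vehicle and at 8.4, 5.69, 0, 1.92 and 4.79 in C1 and D1 to D4, with 14 and 24 reads in all. The floor of 3 reads that a listed 0 leaves possible was 1.56 to 4.29 on this scale in the vehicle libraries and 2.13 to 5.43 in OXA. The ratio of the pooled, depth-corrected counts was 2.07 (95% exact interval 1.03 to 4.32, for counting error only), and the groups overlapped from 0 upwards. Against the spread between libraries the difference did not pass (exact permutation p = 0.468 for mean log2(value + 1)). Nos2 (ENSMUSG00000020826.8) spans 78920787 to 78960554 on chromosome 11. Exact permutation tests were run for all 10 members without adjustment, and gave p = 0.00794 for Defb14, Defb4, Slpi and Pglyrp1, 0.0159 for Defb3 and Lcn2, 0.0238 for Wfdc12, 0.0556 for Wfdc5 and 0.198 for Defb1. Of 15 other genes of nitric oxide and arginine supply, 14 were tested, 2 rose and none fell, where 15.7% of all tested genes rose and 14.2% fell. Irf1, a transcription factor that acts on the Nos2 promoter, went from 64.0 ± 24.9 to 283 ± 69.1 normalized counts (SD, n = 5; 2.19 ± 0.27, SE, adjusted p = 5.67e-05).

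Within OXA the members shared their lowest library by direction, while the order of the other libraries varied. All 4 members that rose were lowest in D3, as were the summed neutrophil markers and the summed macrophage markers given below. All of the 5 tested members that did not rise (Defb1, Defb4, Slpi, Wfdc5 and Wfdc12) were lowest in D1, and 4 of them were highest in D2. The summed eosinophil markers also had D1 lowest and D2 highest, so these extremes were not particular to the members. The share of all tested genes with such extremes was not counted. The summed normalized counts of 10 squamous epithelium markers had the same extremes, from 221273 in D1 to 540575 in D2, with 593625 to 1006270 in vehicle. Krt4 and Krt13 made up 82.3% to 95.3% of that sum. Without them the other 8 markers summed to 32850 to 47242 in vehicle and to 26818 (D1) to 57553 (D4) in OXA, so the place of D2 and the distance from vehicle rested on those 2 keratins. The summed counts of 8 muscle markers were highest in D1, at 120538. In bulk tissue, fewer cells of a type and less RNA per cell cannot be told apart.

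Levels relative to epithelial genes of the same library were compared for that reason, on 2 scales chosen after seeing the data, with p-values unadjusted. Against the mean log2 level of the 10 squamous markers, 12.16 in both groups, the differences were -2.44 for Defb4, -1.30 for Slpi and 1.67 for Defb14, each with no overlap (exact permutation p = 0.00794). Each difference shifts on this scale by that of the list itself (0.004), so its size could hardly move. The list was level while its own markers moved both ways, so this scale cannot decide whether the changes hold relative to the epithelium. Wfdc5 stood at -0.60 on this scale as in normalized counts, where its exact permutation p was 0.0556, and here passed with overlap (exact permutation p = 0.0159). Among the 10 markers, 3 rose, 2 fell and 5 did not pass, where 15.7% of all tested genes rose and 14.2% fell. Krt14, a basal keratin, and the adhesion genes Cdh1 and Dsg3 rose by 2.18, 0.98 and 1.91, while Krt15 and Krt4 dropped by 2.03 and 1.53 (limma adjusted p = 0.0344 for Krt4, a call lost in 10 of 23 alternatives). Against the sum of Krt4 and Krt13, keratins of the suprabasal layers, the result differed by gene. The sum itself was lower in OXA, at a mean log2 of 18.22 against 19.40 in vehicle. That difference (-1.18) is subtracted from every gene, so a gene level in normalized counts would be higher on this scale. The scale therefore cannot decide whether a gene that is higher on it rose itself. Defb4 was still lower relative to it (-1.25, no overlap, exact permutation p = 0.00794). Slpi (-0.11, exact permutation p = 0.278) and Wfdc12 (-0.25, exact permutation p = 0.619) did not pass relative to the keratins, and Wfdc5 (0.59) and Defb1 (0.72) were higher relative to them with no overlap (exact permutation p = 0.00794 for each). The members that rose lay further up on this scale by that same shift, from 2.66 for Lcn2 to 4.33 for Defb3.

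**Figure D4:**
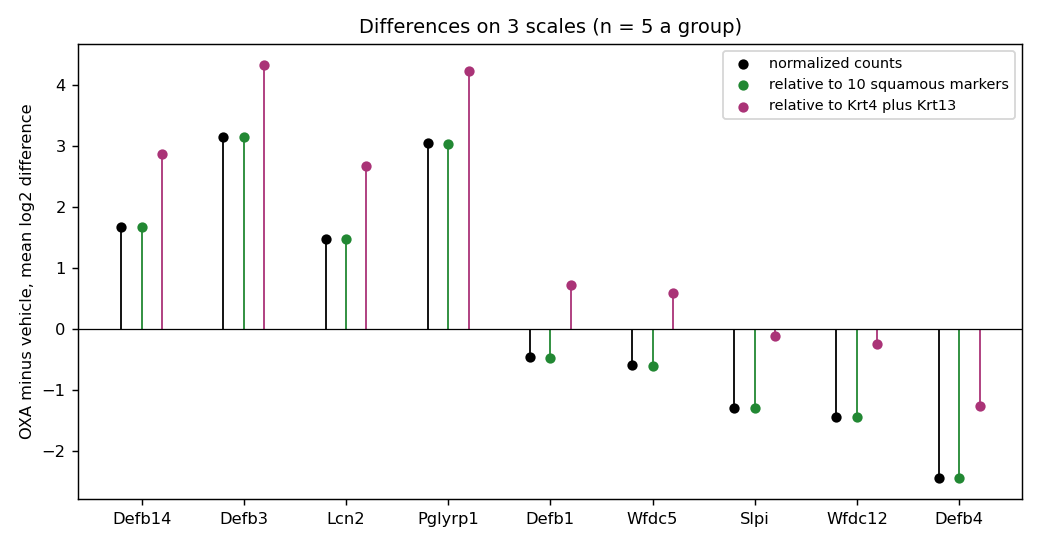
Difference of OXA minus vehicle in mean log2 level (y axis) of the 9 tested antimicrobial genes (x axis) in normalized counts, relative to 10 squamous markers, and relative to Krt4 plus Krt13, each from 5 libraries a group. Relative to Krt4 plus Krt13, Slpi (-0.11) and Wfdc12 (-0.25) lie near 0, Defb4 stays at -1.25, and Defb1 (0.72) and Wfdc5 (0.59) change sign. The keratin sum itself differed by -1.18, which shifts every gene up alike on that scale.

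Markers of leukocytes that can carry Lcn2, Slpi and Pglyrp1 moved too. The summed normalized counts of 11 neutrophil markers were 68.8 to 80.25 in vehicle and 87.2 to 246 in OXA, and over the 5 OXA libraries their order (D1, C1, D2, D4, D3) was that of Lcn2. The place of D2 (115.87) above D4 (111.76) rested on single markers, since Cxcr2 alone differed by more (30.78 and 19.16). In vehicle, Camp and Cxcr2, which did not rise, made up most of the sum, at 25.68 and 20.54 of 68.8 in A1. Only 5 of the 11 were abundant enough to test, and 3 of these rose, 1 fell and 1 did not pass. Of all tested genes 15.7% rose and 14.2% fell. Retnlg went from 1.55 ± 0.58 to 36.2 ± 22.1 (SD, n = 5; 3.70 ± 0.45, SE, adjusted p = 4.58e-05) and the growth factor receptor Csf3r from 9.71 ± 4.56 to 26.6 ± 11.1 (1.41 ± 0.43, adjusted p = 0.0232; adjusted p = 0.0647 without C1 and 0.0546 without D1). The lactoferrin gene Ltf rose as well, with overlap, from 4.98 ± 5.66 to 27.8 ± 26.8 (2.24 ± 0.63, adjusted p = 0.0162). Retnlg and Ltf had vehicle means under 5 and reached the filter only through their OXA libraries. Their place among the tested markers was therefore not independent of their direction. The marker that fell was the cathelicidin gene Camp (-1.29 ± 0.32), and Cxcr2 did not pass (-0.18 ± 0.25). Among the 6 untested markers, Ly6g held 1 and 2 reads in vehicle and OXA, Mpo 0 and 4, Elane 2 and 1, Ngp 1 and 11, Mmp8 4 and 44, and Mmp9 8 and 28. Ltf, Cxcr2 and the untested markers were named after their values were seen. The summed counts of 11 macrophage markers were 2220 to 3882 in vehicle and 4838 to 9496 in OXA, and 10 of the 11 rose with none lower, among them Ccr2 (3.19 ± 0.24), Ly6c2 (3.80 ± 0.37), C1qb (1.37 ± 0.22) and Mrc1 (1.35 ± 0.22). Summed counts of 5 eosinophil markers were 0 to 2.6 in vehicle and 3.55 to 27.2 in OXA, those of 7 gland and airway markers 104 to 123 and 35.1 to 99.6, and those of 4 thyroid markers 0.97 to 4.29 and 1.53 to 12.45. The part of these cells in the change of Lcn2 and Pglyrp1 was not tested.

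**Figure D5:**
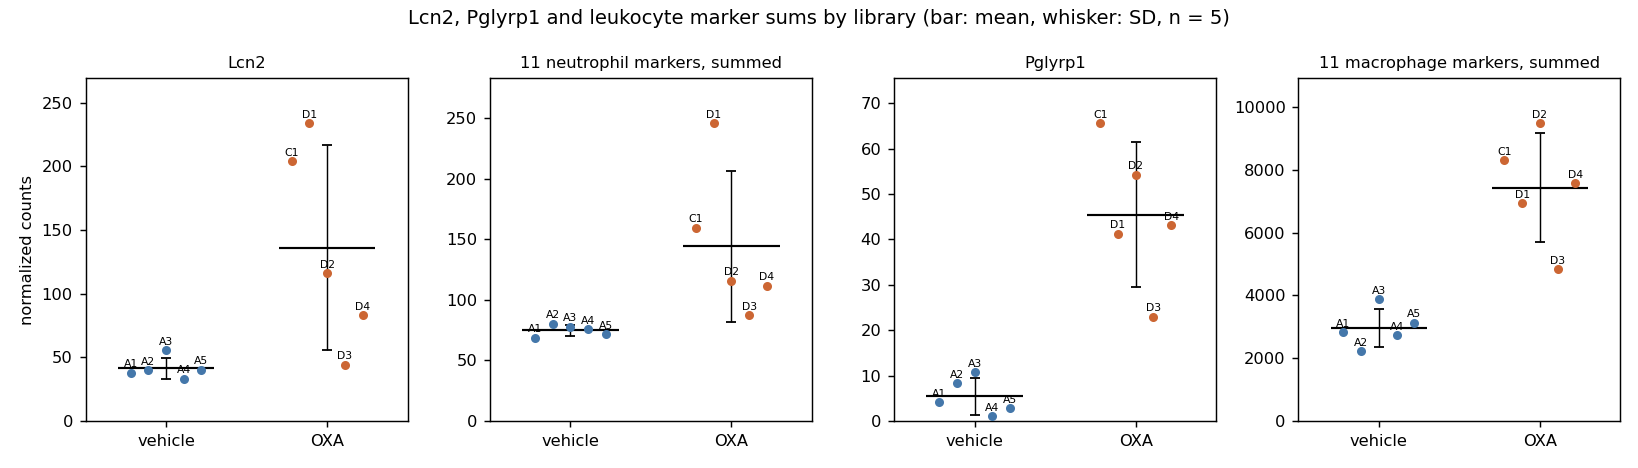
Normalized counts (y axis, linear from 0) of Lcn2, of 11 neutrophil markers summed, of Pglyrp1 and of 11 macrophage markers summed in each library by group (x axis), with the mean and 1 SD (n = 5 a group). In OXA the neutrophil sum is highest in D1 (246) and lowest in D3 (87.2), as is Lcn2 (233.85 and 44.05), and the macrophage sum is lowest in D3 (4838), as is Pglyrp1 (22.98). All 4 members that rose were lowest in D3, and the highest library was C1 for Pglyrp1 but D2 for the macrophage sum.

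Other antimicrobial effectors also moved in both directions. Of 33 such genes 18 were tested, of which 5 rose, 4 fell and 9 did not pass, with a median of 0.18. The shares over all tested genes were 15.7% higher and 14.2% lower. The calprotectin chains S100a8 and S100a9, which withhold zinc and manganese, rose from 14.2 ± 4.91 to 607 ± 415 and from 317 ± 50.4 to 2506 ± 1187 normalized counts (SD, n = 5; limma adjusted p = 2.13e-06 and 2.42e-05). Lysozyme 2 (Lyz2), also a macrophage marker, rose by 1.26 ± 0.22 (SE, adjusted p = 6.44e-04). Camp, also a neutrophil marker, fell from 24.4 ± 2.80 to 9.88 ± 3.87 (-1.29 ± 0.32, adjusted p = 0.00771), and the epithelial oxidase Duox1, which makes hydrogen peroxide, from 270 ± 46.9 to 168 ± 29.5 (-0.68 ± 0.16, adjusted p = 0.00590).

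Of the cytokines known to induce these genes, Il1b was counted and rose, and those of the IL-17 and IL-22 family were scarcely counted. Il1b went from 8.85 ± 4.83 to 42.7 ± 26.9 normalized counts (SD, n = 5; 2.03 ± 0.57, SE, limma adjusted p = 0.0159), from 48 and 235 reads, with overlap between the groups. Il22 had no read in any library, which leaves 3 reads possible in each. Il17a and Il17c held 3 reads each and Il17f 1 read, all in OXA. These 5 cytokines were named after their values were seen. In this list of 23 inducing cytokines, receptor chains and transcription factors, 17 could be tested. There were 7 that rose, 2 that fell and 8 that did not pass (median 0.51), where 15.7% of all tested genes rose and 14.2% fell. The IL-17 receptor chain Il17ra rose by 0.75 ± 0.17 (SE, limma adjusted p = 0.00529), and 2 other chains, Il17rc (0.16 ± 0.15) and Il17re (0.09 ± 0.25), did not pass. Traf3ip2, the adaptor of these receptors, was lower with no overlap (-1.03 ± 0.26, adjusted p = 0.00802). It and these 2 chains were named after their values were seen. Nfkb2 rose by 1.29 ± 0.14, Nfkb1 by 0.98 ± 0.12 and Stat3 by 0.93 ± 0.14, while Cebpd, a C/EBP factor of the acute phase, was lower (-1.02 ± 0.20, adjusted p = 0.00147). Another C/EBP factor, Cebpb, had means of 1144 in vehicle and 1325 in OXA and did not pass (0.20 ± 0.13, SE, limma adjusted p = 0.267). Cebpb was named after its values were seen. Of 12 receptors and sensors 9 were tested, 3 rose and none fell. All 3 had vehicle means under 5 and reached the filter only through their OXA libraries. Their place among the tested genes was therefore not independent of their direction. Among the 3, the bacterial lipoprotein receptor chain Tlr1 went from 3.51 ± 3.55 to 27.5 ± 9.54 (SD, n = 5; adjusted p = 0.00121). Of 9 proteases and partners of the WAP inhibitors 5 were tested. Progranulin (Grn), which Slpi shields from cleavage, rose by 1.09 ± 0.14 (adjusted p = 7.97e-05), the kallikrein Klk5 was lower (-3.02 ± 0.35, adjusted p = 3.54e-05), and 3 did not pass.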

How the data were processed

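CEL-Seq, which counts the 3′ ends of polyadenylated RNA, was run on TRIZOL-extracted RNA of 10 esophagus libraries, per the labels' protocols. The deposited values are a signal, gene counts divided by 1 size factor per library, as worked out from the values: divided by 1 step per library, 100% of values were whole within 0.006. DESeq2 1.18.1, HTSeq 0.11.2, Bowtie2 2.2.6, TopHat2 2.1.0, cutadapt 1.10, Trim Galore, FastQC 0.11.5 and GRCm38 are named with no role, per the submitters' processing notes. The sources used here do not give the strand setting, annotation release, filters or any counting of molecular identifiers, so floors and intervals cover counting error only. For 19653 of 54409 identifiers matched to GENCODE M21, all 10 members among them, the span in the table ran 300 bases farther at the 3′ end. Libraries held 3675479 to 12108822 recovered reads.

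limma 3.58.1 with a mean-variance trend (R 4.3.3) gave two-sided tests of log2(value + 1) over 14712 genes, those with mean values of 5 or more. This scale understates the change of low genes. A gene with a mean under 5 in 1 group was tested only through the other group, so its testing was not independent of its direction. This holds through vehicle for Defb6, Wfdc15b and Defa-ps12. Alternatives were other pseudocounts, filters and scalings, edgeR 4.0.16 and DESeq2 1.42.0 on recovered reads, array weights, and fewer libraries. The members and gene lists were chosen with earlier results of these data known. Named genes were the members, every other Defb gene with a read, and up to 5 called genes without overlap from each list.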

Additional observations from a re-analysis of the deposited data

Results flagged for a closer look

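Each of 80 groups of 5 libraries was examined for a library far from the other 4, by Dixon's 95% critical value of 0.71. Chance flags about 1 group in 20, and 5 were flagged. Defb3 in vehicle was flagged for A3, at 1.95 normalized counts against 0 to 0.52 in the others, a gap of 2 reads against 0 or 1. Defb6 in OXA was flagged for D4, at 0 against 4.26 to 5.75. Duox1 in vehicle was flagged for A5, at 350.56. Ly6c2 and Krt14 in OXA were flagged for D4, at 491.68 and 20157.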

How the results depend on the processing

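The 23 alternatives kept 4 members higher and 3 lower to within 1 gene in each direction. Counts over all genes ranged from 1896 to 2915 higher and from 1545 to 2537 lower, against 2309 and 2085 as reported. Of 39 single-gene results 35 kept their direction and call throughout, 3 lost a call somewhere (Defb3, Krt4 and Csf3r), 1 gained one (Wfdc5), and none turned. Defb3 had no value with a mean of at least 20. Wfdc5 passed with quantile normalization, array weights, the 7 deepest libraries and all libraries but D2 (adjusted p = 0.0368, 0.0425, 0.0173 and 0.00827). Krt4 lost its call with a mean of at least 1 (adjusted p = 0.111), without a filter (adjusted p = 0.346) and without any 1 library other than A2 or D2. Relative to Krt4 plus Krt13, the differences of Defb1 (0.72) and Wfdc5 (0.59) had the opposite sign to those in normalized counts. The keratin sum itself differed by -1.18, which shifts every gene up alike on that scale. Scaling to library totals (CPM) moved the median log2 fold change of all genes from -0.01 to 0.115 and the share of higher genes among calls from 52.5% to 65.4%. A paired fit, with the digit of the library code as a block (C1 and D1 sharing 1, A5 alone), was added after seeing the data, although nothing in the labels ties equal digits together. Deviations of A1 to A4 from their group mean correlated at 0.19, -0.234, -0.132 and 0.012 with those of D1 to D4. A1 correlated at 0.0126 with C1, and pairs with unlike digits ranged from -0.233 to 0.246. Deviations from a group mean give values around 0 by construction, so these correlations cannot decide whether equal digits mark pairs. With the block 1853 genes were higher and 1490 lower, the members stayed at 4 and 3, and of the named genes Krt4 (adjusted p = 0.190) and Csf3r (adjusted p = 0.0644) lost their calls. Depth limits Nos2 and the vehicle level of Defb3, which rested on 3 reads.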
